A study of Mus musculus with 13 samples.

Results

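Genes for serotonin (5-hydroxytryptamine, 5-HT) receptors were followed in mouse dorsal root ganglion cells sorted for a Ret reporter: the channel subunits Htr3a and Htr3b, and the G-protein-coupled receptors Htr1a, Htr1b, Htr1d, Htr1f, Htr2a, Htr2b, Htr4 and Htr7. They were taken by gene symbol, 10 of the 41388 genes counted, and 14 genes in all carried a serotonin receptor symbol. Htr3a was selected on its measured difference between spinal levels in these libraries, so differences of these 10 genes between levels are given as descriptions, and any call among them supports nothing.

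Cells carrying the Ret-EGFP reporter were sorted from ganglia of C57BL/6 mice aged 3 months, and each of the 13 RNA libraries came from a pool of animals. Male L6S1 pools (ganglia L6 and S1; n = 4, lettered A, D, E and F), female L6S1 pools (n = 3, A to C), male L345 pools (ganglia L3 to L5; n = 3, A to C) and female L345 pools (n = 3, A to C) were profiled. All groups carried the reporter: the sample labels name the genotype Tg(Ret-EGFP)SJ, whereas the design text describes heterozygotes with EGFP placed in the Ret locus, so a change in the Ret gene may be shared by every group. Ganglia with the wild-type Ret locus and reporter-negative cells were not analysed here. Each pool held 2 to 9 mice, and p-values measure the spread between pools.

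Serotonin released from platelets, mast cells and gut enterochromaffin cells acts on sensory nerve endings through several receptor families. The 5-HT3 receptor is a ligand-gated cation channel made of subunits, in which Htr3a can form a channel alone and Htr3b needs Htr3a, and it excites the neuron directly. The Htr1 receptors couple to inhibitory Gi/o proteins, the Htr2 receptors to Gq and phospholipase C, and Htr4 and Htr7 to Gs and adenylyl cyclase. In ganglia of the lumbosacral junction many neurons project to pelvic organs, whereas those of the mid-lumbar segments serve mostly the hindlimb.

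Library totals ran between 13030096 and 27011995 counts, and 15406 genes passed the filter on low counts, all 10 receptor genes among them. Ret itself was present in all libraries, at 87.2 to 221 CPM (counts relative to library totals that were scaled by the trimmed mean of M-values). The 7 pan-neuronal markers summed to 8519 to 15740 CPM, while the 7 markers of autonomic neurons were each below 1 CPM everywhere. A pair of male L6S1 libraries, D and E, stood apart. Their summed Ret-neuron markers (Ret, Gfra1 and Gfra2) were 309 CPM in D and 186 CPM in E, against 432 to 615 CPM in the other 11 libraries. Their 5 peptidergic nociceptor markers summed to 22400 CPM in D and 28930 CPM in E, against 7542 to 13450 CPM elsewhere, and in E the 8 glial markers reached 5807 CPM, against 768 to 1771 CPM in the other 12. The labels give no batch, but the processing notes name STAR and Salmon for the females only and male L6S1 E and F carry labels in another format, so sex cannot be told apart from such differences in handling.

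Htr3a was the most abundant receptor transcript on average over the 13 libraries and was higher at L6S1 in both sexes. It stood at 55.6, 78.9, 116 and 149.5 CPM in male L6S1 libraries A, D, E and F and at 74.8, 136 and 122 CPM in female L6S1 libraries A, B and C. It stood at 30.7, 36.3 and 37.8 CPM in male L345 libraries and at 20.05, 44.1 and 48.3 CPM in female L345 libraries. All 7 L6S1 libraries lay above all 6 L345 libraries, so the levels did not overlap. The fitted log2 fold change, L6S1 over L345 averaged over sexes, was 1.54 (SE 0.27), a fold of 2.91, with 1.52 (SE 0.38) in males and 1.56 (SE 0.39) in females. Blocking on the letter moved the male value to 0.86 (SE 0.27), where only letter A occurs at both levels. Without male L6S1 D and E, the value averaged over sexes was 1.55 (SE 0.29). The remaining male L6S1 libraries, A and F, were still above all 3 male L345 libraries. In these bulk pools, fewer cells that express a gene and less of its RNA per cell cannot be told apart.

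Htr3b, which modifies the conductance and kinetics of the channel, overlapped between levels. Its CPM was 11.9, 11.3, 20.5 and 21.6 in male L6S1 libraries and 13.1, 19.8 and 21.8 in female L6S1 libraries. Its CPM was 19.9, 15.4 and 16.4 in male L345 libraries and 8.22, 15.4 and 16.6 in female L345 libraries. Its lowest value was in female L345 A, as for Htr3a, and the log2 fold change between levels, averaged over sexes, was 0.18 (SE 0.23). The genes lie beside each other on the minus strand of chromosome 9 (GRCm38, as the deposited files give them), Htr3a at 48899214 to 48911099 and Htr3b at 48935008 to 48964990, with 23908 bases and 0 annotated genes between them.

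The ratio of the subunit transcripts also separated the levels. Its numerator, Htr3a, was selected on that difference, so the separation is a description and not support. Per length, as deposited RPKM (reads scaled by exon length and library total), the ratio of Htr3a to Htr3b was 5.40, 8.08, 6.55 and 7.997 in male L6S1 libraries A, D, E and F, and 6.62, 7.95 and 6.48 in female L6S1 libraries. It was 1.79, 2.73 and 2.67 in male L345 libraries and 2.82, 3.31 and 3.38 in female L345 libraries. A ratio within a library does not depend on its scaling, and the lowest L6S1 ratio exceeded the highest L345 ratio. At L345 the male ratios also lay below the female ratios, a difference that was not tested.

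**Figure D1:**
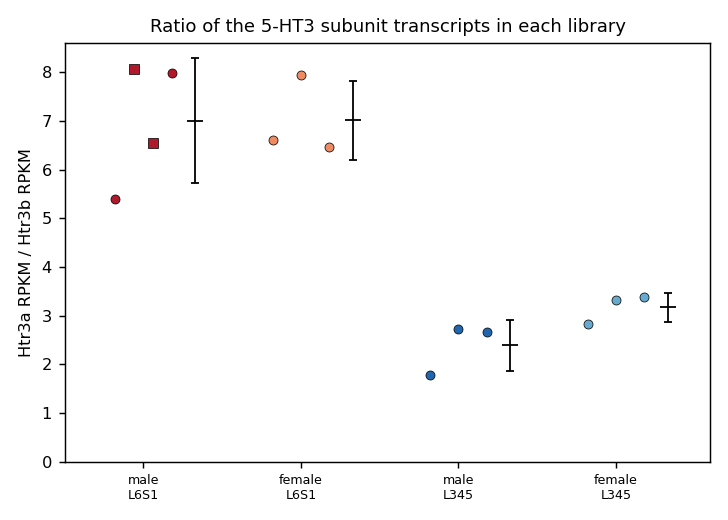
Ratio of Htr3a to Htr3b RPKM in each library (points; squares are male L6S1 D and E), with the group mean and SD as a bar. The 7 L6S1 libraries lie between 5.40 and 8.08, all above the 6 L345 libraries, which lie between 1.79 and 3.38.

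Among the Gi-coupled receptors, Htr1a, Htr1b and Htr1d overlapped between levels, and so did Htr1f. Htr1a, an inhibitory autoreceptor on serotonergic neurons of the brain, was at 29.1, 8.01, 3.92 and 22.2 CPM in male L6S1 libraries A, D, E and F and at 38.6, 31.3 and 28.0 CPM in female L6S1 libraries. In L345 libraries it was at 21.4, 25.8 and 20.8 CPM in males and at 23.7, 22.3 and 23.4 CPM in females. The 3 female L6S1 libraries were above all 6 L345 libraries, while male L6S1 D and E were below them. The averaged log2 fold change between levels was -0.01 (SE 0.34), and it was 0.33 without D and E.

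Htr1b, Htr1d and Htr1f are the receptors that the triptan and ditan drugs for migraine act on. Htr1b was at 7.31 to 15.6 CPM in male L6S1, 14.1 to 26.0 CPM in female L6S1, 14.4 to 20.6 CPM in male L345 and 14.7 to 30.7 CPM in female L345 libraries. Htr1d was at 9.01 to 29.6 CPM in male L6S1, 23.2 to 36.0 CPM in female L6S1, 23.2 to 51.9 CPM in male L345 and 21.2 to 28.3 CPM in female L345 libraries. Their log2 fold changes between levels, L6S1 over L345 averaged over sexes, were -0.44 (SE 0.26) for Htr1b and -0.35 (SE 0.27) for Htr1d. Htr1b shares 852 of its exon bases (18.0%) with D430036J16Rik on the opposite strand, and the handling of strand in counting is not given in the sources used here, so its counts are uncertain to that extent. Htr1f was at 15.5, 19.7, 10.6 and 12.2 CPM in male L6S1 libraries and at 39.6, 24.3 and 17.3 CPM in female L6S1 libraries. In L345 libraries Htr1f was at 9.97, 10.6 and 15.6 CPM in males and at 23.7, 13.02 and 14.1 CPM in females, and its log2 fold change between levels was 0.47 (SE 0.25).

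The Gq-coupled receptors were low. Htr2a, which sensitises nociceptors to other inflammatory mediators in rodents, was at 6.59, 0.707, 1.23 and 3.32 CPM in male L6S1 libraries A, D, E and F and at 13.2, 7.34 and 6.96 CPM in female L6S1 libraries. In L345 libraries it was at 7.14, 4.79 and 7.98 CPM in males and at 1.86, 7.55 and 5.01 CPM in females. The levels overlapped, and the averaged log2 fold change was -0.11 (SE 0.43). Htr2b had 0 to 13 counts per library, close to the floor of 3 counts used here, and passed the filter through only 3 libraries. A count of 0, as in male L6S1 F, allows up to 0.109 CPM by counting error alone. In addition, 252 exon bases of Htr2b (11.8%) overlap Psmd1 on the opposite strand, a gene with 108039 counts over all libraries. No difference in Htr2b was detectable at this depth.

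Of the Gs-coupled receptors, Htr4 was at 16.9, 6.60, 5.09 and 14.5 CPM in male L6S1 libraries A, D, E and F and at 17.1, 15.4 and 12.9 CPM in female L6S1 libraries. In L345 libraries it was at 18.0, 18.1 and 19.9 CPM in males and at 10.2, 19.3 and 18.2 CPM in females. Its averaged log2 fold change was -0.43 (SE 0.27), and -0.17 without D and E. Htr7 was rare, at 0.0890, 0.754, 0.936 and 1.46 CPM in male L6S1 libraries and at 1.81, 1.68 and 1.87 CPM in female L6S1 libraries. In L345 libraries Htr7 was at 0.595, 0.140 and 0.584 CPM in males and at 0.690, 0.659 and 0.821 CPM in females. The 3 female L6S1 libraries were above each of the other 10, and the averaged log2 fold change between levels was 1.11 (SE 0.46), from 2 to 41 counts per library.

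**Figure D2:**
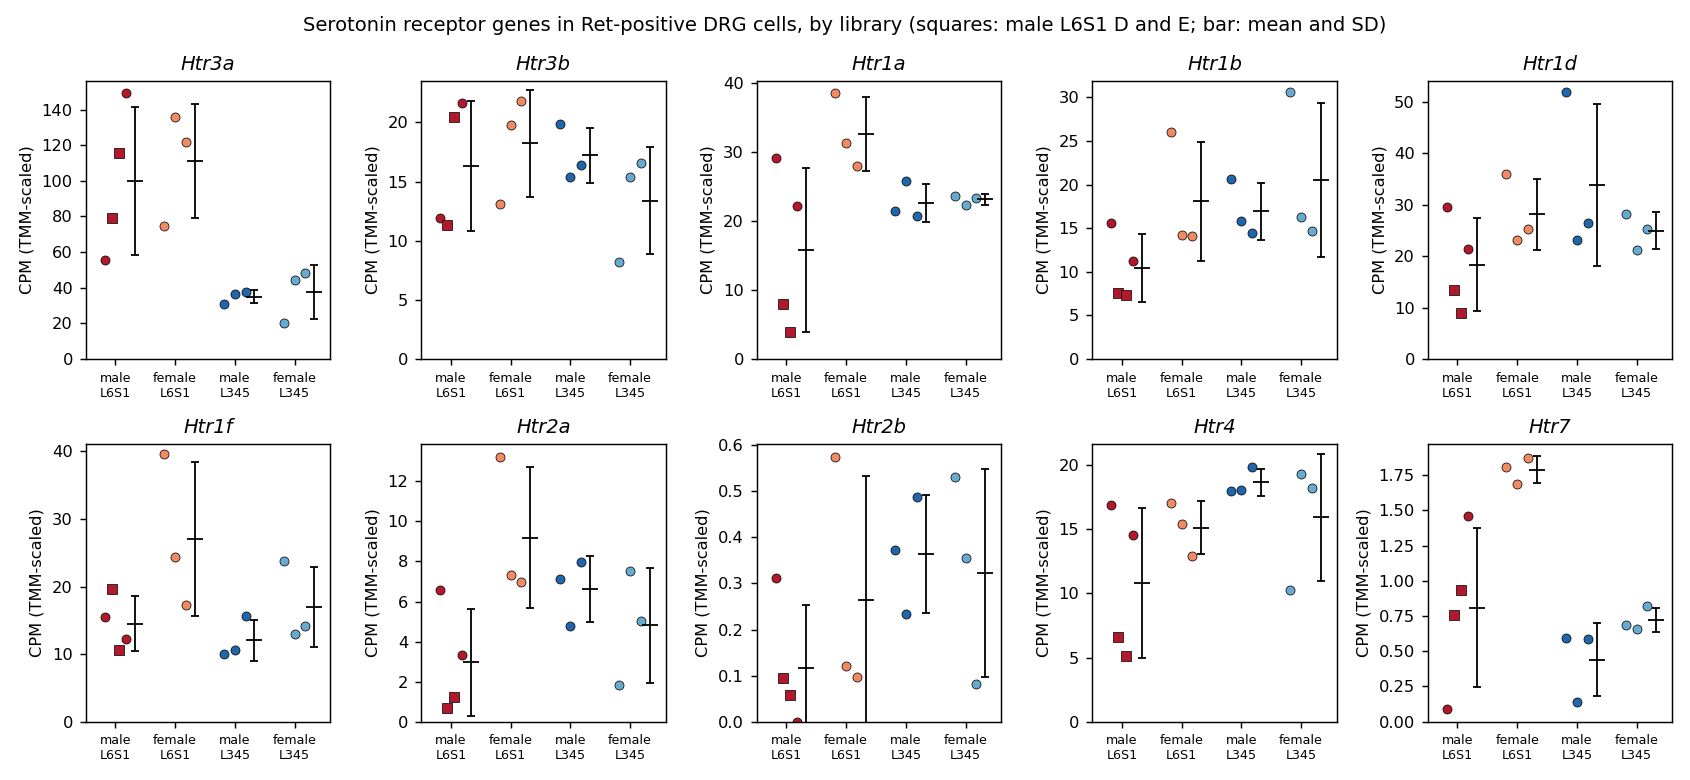
CPM of each receptor gene in each library (points; squares are male L6S1 D and E), with the group mean and SD as a bar; each panel has its own linear axis from 0. Htr3a separates L6S1, at 55.6 CPM or more, from L345, at 48.3 CPM or less, and the other genes overlap between levels.

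Over the 10 genes, 4 had a higher and 6 a lower fitted value at L6S1 averaged over sexes (5 and 5 with median-of-ratios size factors), with a median log2 fold change of -0.06, against 0.02 over all genes tested. Across all 15406 genes tested, 0.448% were called between levels at an adjusted p under 0.05 (edgeR quasi-likelihood test, Benjamini-Hochberg), and of the 10 the call fell on Htr3a, the gene selected on that comparison. The Htr3a log2 fold change stayed between 1.37 and 1.65 when any 1 library was left out, with edgeR adjusted p between 0.00465 and 0.0669. The call ended without female L6S1 B, without female L345 B and without any 1 of the male L345 libraries. Within females 0 of 10 were called, against 0.0195% of all genes, and within males 0 of 10, against 0.221%. With other settings Htr3a was also called within females, by DESeq2, without the low-count filter (0.126% of all genes) and with the replicate block (0.363%). DESeq2 called 0.254% of the 18539 genes to which it gave an adjusted p there. Within males Htr3a was called by DESeq2 and without the filter (0.981% of all genes), but not with the block. DESeq2 called 7.53% of the 12812 genes to which it gave an adjusted p within males.

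Several G-protein-coupled receptor genes were lowest in male L6S1 libraries D and E. For Htr1a, Htr1b, Htr1d, Htr2a and Htr4, both D and E lay below all other 11 libraries. The share of all genes that lay so was not counted, so the pattern is not shown to be particular to these receptors. D and E differed from A and F over all genes as well. Chi-square per gene against sampling noise was 311.5 to 471.4 for those pairs, and 94.2 for A with F. Htr1a stood at 8.01 CPM in D and 3.92 CPM in E, against 20.8 to 38.6 CPM in the other 11, and Htr1d stood at 13.5 CPM in D and 9.01 CPM in E, against 21.2 to 51.9 CPM. Htr3a, Htr3b, Htr1f, Htr2b and Htr7 were inside the range of the others in both libraries. The lower Ret-neuron markers and higher peptidergic markers given above moved with these values, and their part in them was not tested.

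Because several G-protein-coupled members were low together in D and E, the promoters of the pair that lay furthest below their medians there, Htr1a and Htr2a, are shown with that of Htr3b, which stayed in range. Each runs from 250 bases before to 50 after the annotated start (RefSeq, GRCm38.p6), 5′ to 3′ on the gene's strand. Capitals mark the GC box GGGCGG or its reverse complement CCGCCC, searched on both strands.
Htr1a promoter, chr13:105443443-105443742, plus strand: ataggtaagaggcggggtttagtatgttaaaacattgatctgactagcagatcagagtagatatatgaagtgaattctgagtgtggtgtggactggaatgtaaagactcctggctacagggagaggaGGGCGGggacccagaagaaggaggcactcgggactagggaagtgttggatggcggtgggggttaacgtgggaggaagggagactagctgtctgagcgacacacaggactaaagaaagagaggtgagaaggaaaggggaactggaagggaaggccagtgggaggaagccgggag
Htr2a promoter, chr14:74640624-74640923, plus strand: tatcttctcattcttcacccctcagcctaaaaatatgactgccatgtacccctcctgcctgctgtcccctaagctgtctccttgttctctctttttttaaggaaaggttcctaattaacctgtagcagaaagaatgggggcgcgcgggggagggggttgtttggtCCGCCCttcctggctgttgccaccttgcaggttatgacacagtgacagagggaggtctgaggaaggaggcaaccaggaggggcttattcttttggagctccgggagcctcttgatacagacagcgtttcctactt
Htr3b promoter, chr9:48964941-48965240, minus strand: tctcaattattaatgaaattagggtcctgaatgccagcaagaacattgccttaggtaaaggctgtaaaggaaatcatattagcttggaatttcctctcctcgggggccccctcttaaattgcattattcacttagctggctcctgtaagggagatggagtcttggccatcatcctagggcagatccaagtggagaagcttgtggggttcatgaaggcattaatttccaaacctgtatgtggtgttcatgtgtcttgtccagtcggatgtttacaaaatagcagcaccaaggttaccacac
Htr1a and Htr2a each held 1 GC box and Htr3b held 0, while 35.7% of 32851 mouse promoters of this length held at least 1. Of the other genes low in D and E, Htr1b held 0, and Htr1d held 1 and 4 in its windows. Of those that stayed in range, Htr1f held 1, and Htr2b and Htr7 held 0. Among the 8 genes read, the GC box thus did not separate those low in D and E from the others. No window was read for Htr4, also low in D and E, or for Htr3a, which stayed in range. A part of the promoters in the low values was not tested. A TATA box, TATAAA on either strand, was in 0 of the 9 windows read for 8 of the 10 genes, and in 13.6% of all promoters. The GC content was 52.3% for Htr1a, 52.0% for Htr2a and 44.3% for Htr3b, against a median of 52.7%. These matches describe letters only.

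**Figure D3:**
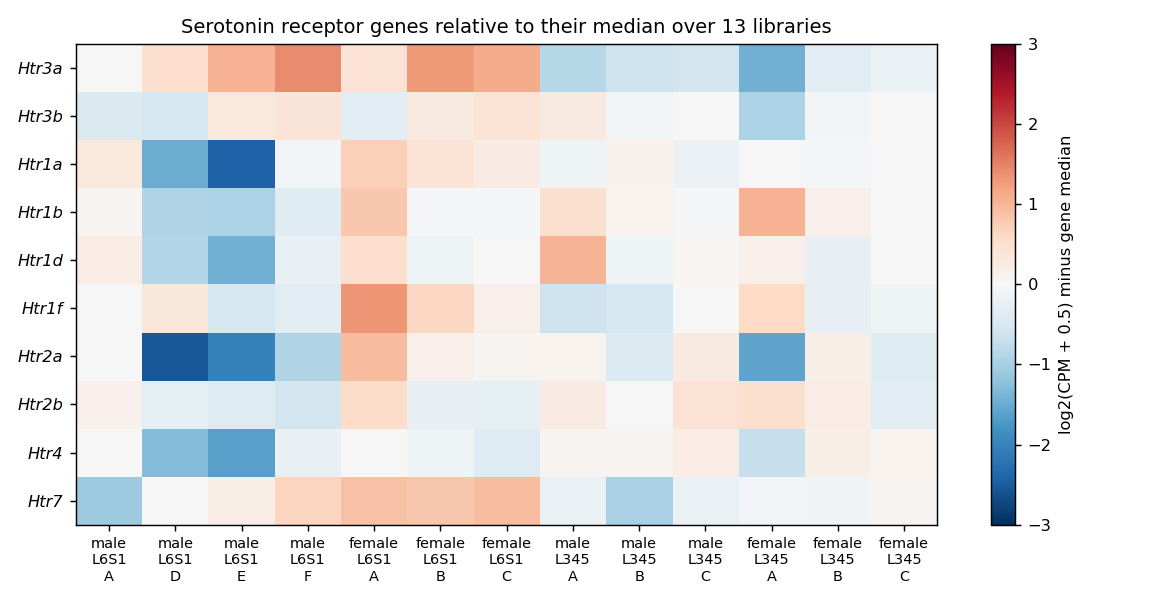
Receptor genes (rows) in each library (columns), as log2(CPM + 0.5) minus the gene's median over the 13 libraries; red is above and blue below the median. Male L6S1 D and E are blue for Htr1a, Htr1b, Htr1d, Htr2a and Htr4, while Htr3a is red in most L6S1 and blue in all L345 libraries.

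Between the sexes no receptor gene passed the threshold. Averaged over levels, 0 of 10 were called (edgeR quasi-likelihood test, adjusted p under 0.05), where 0.0779% of all genes were. At L6S1 the counts were 0 of 10 and 0.0844%, and at L345 0 of 10 and 0.0325%. For Htr3a the log2 fold change, males over females, was -0.13 (SE 0.26, edgeR adjusted p = 0.887), with a 95% interval of -0.64 to 0.39. For Htr3b it was 0.10 (SE 0.23, edgeR adjusted p = 0.897), with an interval of -0.36 to 0.56.

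At L6S1, fitted values of all 10 were negative, that is lower in males, with a median log2 fold change of -0.85 against 0.03 over all genes. At L345, 5 were positive and 5 negative. Without D and E, 9 of the 10 were still negative at L6S1, but the median moved to -0.40. Leaving out female L6S1 A alone moved the median to -0.42, also with 9 negative. Htr2a came nearest to the threshold at L6S1, with 0.707 to 6.59 CPM in males and 6.96 to 13.2 CPM in females. Its log2 fold change was -1.62 (SE 0.58, edgeR adjusted p = 0.13). DESeq2 gave -1.63 with an adjusted p of 0.0492. In that comparison DESeq2 called 10.9% of the 11772 genes to which it gave an adjusted p. Leaving out male L6S1 A gave -2.36 with an edgeR adjusted p of 0.0156, where 20.6% of all genes were called. Leaving out D and E gave -0.90 with an edgeR adjusted p of 0.608.

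Htr1f, Htr1a and Htr1b showed the same sign at L6S1. Htr1f had a log2 fold change of -0.90 (SE 0.33, edgeR adjusted p = 0.131), males over females, and its male and female ranges overlapped between 17.3 and 19.7 CPM. Htr1a had -1.04 (SE 0.46, edgeR adjusted p = 0.17), which became -1.51 with an adjusted p of 0.0289 without male L6S1 A, and -0.36 with an adjusted p of 0.608 without D and E. Htr1b had -0.79 (SE 0.35, edgeR adjusted p = 0.169), and -1.05 with an adjusted p of 0.0453 without male L6S1 A. Without that library, D and E are 2 of the 3 remaining male L6S1 pools.

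Htr7 at L6S1 was at 0.0890 to 1.46 CPM in males and at 1.68 to 1.87 CPM in females, and its log2 fold change was -1.13 (SE 0.58, edgeR adjusted p = 0.224). With the replicate letter as a block it was -4.35 (SE 0.94, edgeR adjusted p = 0.0259) at L6S1, where only letter A occurs in both sexes, with 2 counts in the male and 41 in the female library, and where 4.34% of all genes were called. Averaged over levels, Htr7 had -0.94 (SE 0.46, edgeR adjusted p = 0.665), and -2.58 (SE 0.54, edgeR adjusted p = 0.0291) with the block. The block raised the genes called between the sexes to 369 (2.4% of those tested), against 12 without it.

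The level effect did not differ detectably between males and females for any of the 10 genes (0 of 10 called, edgeR interaction contrast, and 0 of all 15406 genes, 0%, with 1805 at an unadjusted p under 0.05; DESeq2 also called 0). For Htr3a the difference of log2 fold changes, males minus females, was -0.05 (SE 0.53, edgeR adjusted p = 0.972), with a 95% interval of -1.08 to 0.98. Htr2a had the largest difference among the 10, -2.09 (SE 0.86, edgeR adjusted p = 0.409), with -1.15 (SE 0.59) between levels in males and 0.93 (SE 0.63) in females. Without D and E the Htr2a difference was -1.36 (SE 0.69).

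**Figure D4:**
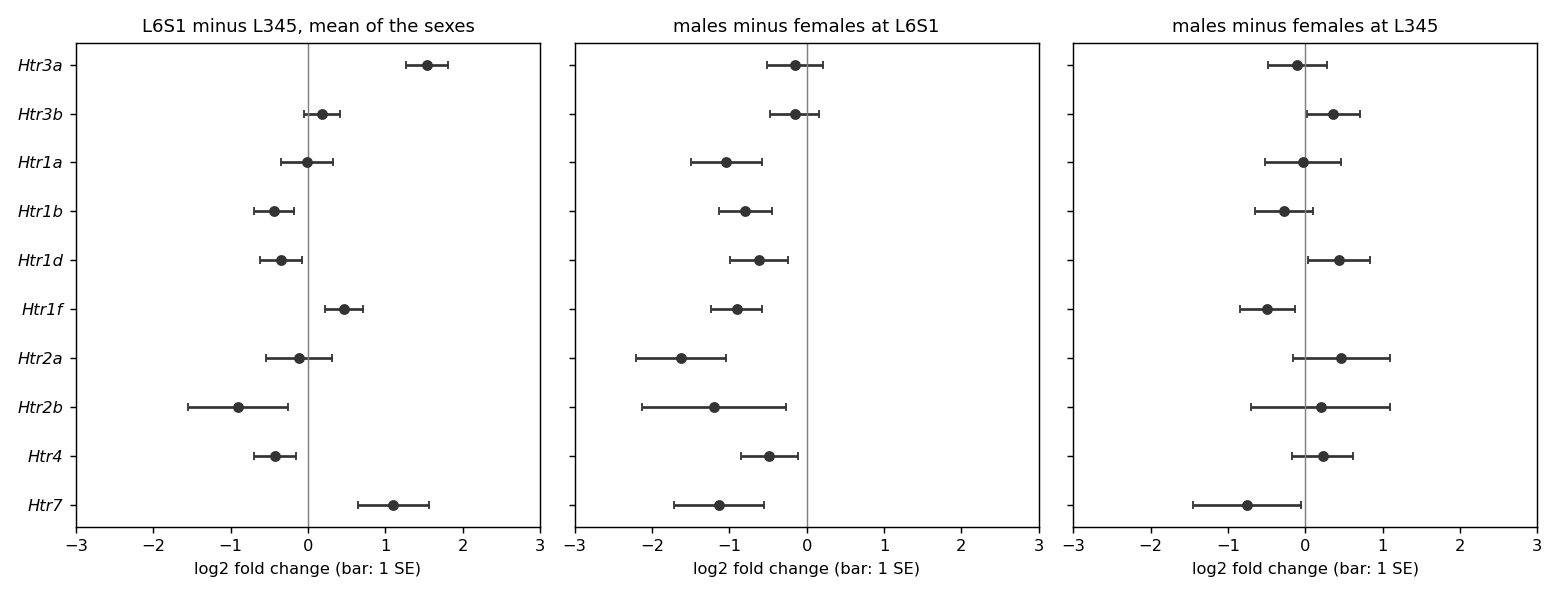
Log2 fold changes with 1 SE (bars) for L6S1 over L345 averaged over sexes, males over females at L6S1 and males over females at L345. Htr3a lies at 1.54 between levels and within 0.2 of 0 between the sexes; all 10 genes lie below 0 in males against females at L6S1, and 5 of 10 at L345.

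Per length, the receptor transcripts covered a wide range. The mean deposited RPKM over the 13 libraries was 34.9 for Htr3a, 8.18 for Htr1d, 7.00 for Htr1f, 6.77 for Htr3b, 5.29 for Htr1a, 3.45 for Htr1b, 3.23 for Htr4, 1.955 for Htr2a, 0.276 for Htr7 and 0.122 for Htr2b. Htr5b, which encodes a 5-HT5 receptor, was not one of the 10 and averaged 18.1 RPKM, with 15.7 to 21.1 RPKM at L6S1 and 14.8 to 21.1 RPKM at L345. Htr3a exceeded Htr5b in all 7 L6S1 libraries without overlap, at 27.0 to 72.9 RPKM, whereas at L345 they overlapped and Htr3a was the higher in 4 of 6 libraries. Below them, Htr1d and Htr1f overlapped in every group but male L345, and so did Htr1f and Htr3b, so their order is not resolved beyond the spread. Htr2a lay below Htr4 in 12 of 13 libraries.

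The share of Htr3a in the summed RPKM of the 14 receptor genes was 31.6 to 58.3% at L6S1 and 14.6 to 31.0% at L345. The sum itself was 76.0 to 127 RPKM in male L6S1, 113 to 131 RPKM in female L6S1, 68.3 to 82.4 RPKM in male L345 and 67.4 to 76.4 RPKM in female L345 libraries. Leaving Htr3a out, the sum was 31.7 to 76.1 RPKM at L6S1 and 50.5 to 67.1 RPKM at L345, which overlapped. The 4 Gi-coupled genes summed to 7.54 to 25.6 RPKM in male L6S1 and 25.2 to 42.2 RPKM in female L6S1 libraries, with 21.0 to 30.8 RPKM at L345.

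**Figure D5:**
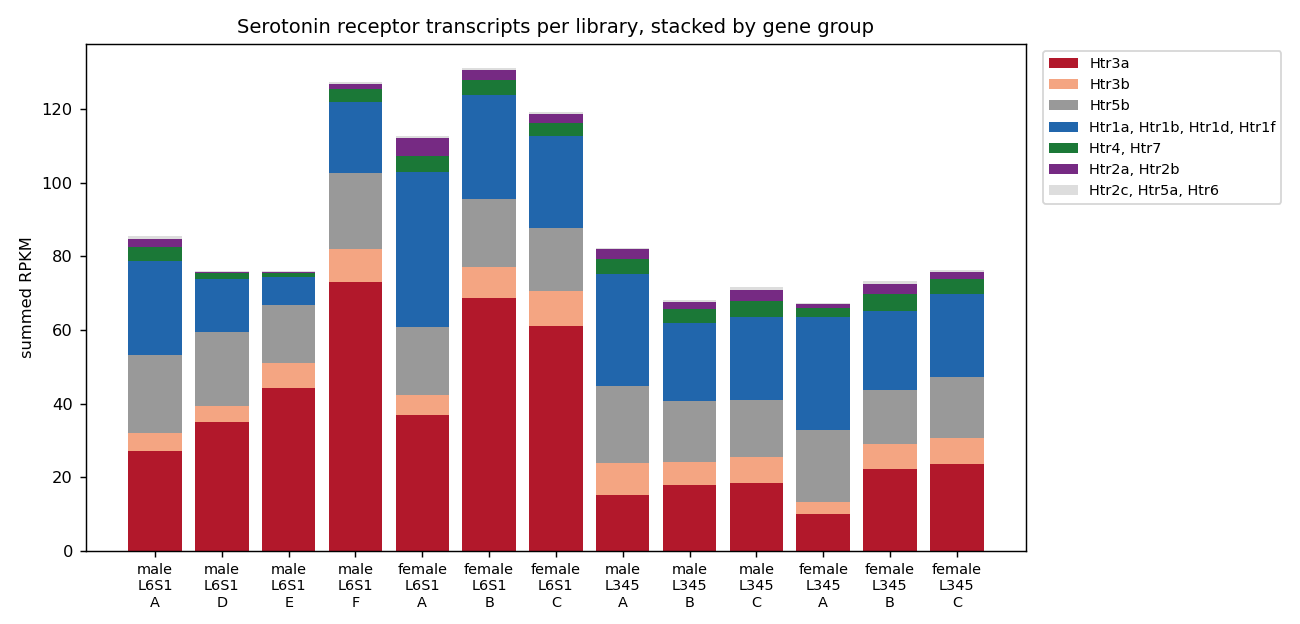
Summed RPKM of the 14 serotonin receptor genes in each library, stacked by gene group. The Htr3a part is 27.0 to 72.9 RPKM at L6S1 and 9.85 to 23.7 RPKM at L345, and the grey Htr5b part is close to even across libraries.

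Across the 13 libraries, Htr3a and Htr3b had a Pearson r of 0.590 in log2 CPM, and 0.891 once each group's mean was taken out. Libraries high for one within a group thus tended to be high for the other. Male L345 A went the other way, lowest of its group for Htr3a (30.7 CPM) and highest for Htr3b (19.9 CPM). Library A was the lowest for Htr3a in every group. Among 11758 genes compared, those most like Htr3a in level were Olfm2 (r = 0.983), Spsb4 (0.962), Dap (0.912), Racgap1 (0.905) and Pnmal1 (0.902). After the group means were taken out they were Spsb4 (0.960), Carmil2 (0.948), Olfm2 (0.946), Rnf208 (0.940) and Atxn7l3 (0.937). Those most like Htr3b in level were Camsap3 (0.850), Rfxank (0.850), Ankrd34a (0.849), Rell2 (0.846) and Pfn1 (0.833). For the deviations of Htr3b they were Syt3 (0.924), Spsb4 (0.907), Tmem175 (0.905), Dus1l (0.900) and Wdr34 (0.896). All points share the same libraries and scaling, and the values describe likeness only. Htr3a was selected on its difference between spinal levels, which favours genes with the same difference in its first list. Of that list, Olfm2 and Spsb4 were themselves called between spinal levels, at log2 fold changes of 2.26 and 1.575. Dap, Racgap1 and Pnmal1 were not called.

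Of the 40 other genes listed for serotonin signalling, 35 passed the low-count filter. Between levels, averaged over sexes, 1 was called higher and 0 lower at L6S1 (edgeR, adjusted p under 0.05; 0.448% of all genes were called), with a median log2 fold change of -0.07. The called gene was Slc22a3, the organic cation transporter that takes up serotonin with low affinity and high capacity, at a log2 fold change of 3.30 (SE 0.62, edgeR adjusted p = 0.0243). Its counts were 5, 6, 1 and 10 in male L6S1 libraries, 29, 20 and 21 in female L6S1 libraries, 1, 1 and 0 in male L345 libraries and 0, 3 and 1 in female L345 libraries. It passed the filter only through the 3 female L6S1 libraries, where it was high, so its call is a description and not support. Summed, 92 counts at L6S1 against 6 at L345 give a ratio of 12.2 after scaling (95% exact interval 5.41 to 34.2, counting error only). Leaving out any one of 9 of the 13 libraries ended the call, with edgeR adjusted p between 0.0139 and 0.0988.

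The listed genes with the highest levels did not pass between spinal levels. Maoa, the main serotonin-degrading enzyme, averaged 34.2 RPKM, with a log2 fold change of 0.01 (SE 0.21, edgeR adjusted p = 0.989). Slc29a4, a plasma membrane monoamine transporter, averaged 7.53 RPKM, with 1.02 (SE 0.33, edgeR adjusted p = 0.357), and the vesicular transporter Slc18a2 averaged 5.82 RPKM, with -0.52 (SE 0.48, edgeR adjusted p = 0.72). Of the partners in receptor assembly and trafficking, S100a10, Tmem35a and Ric3, a chaperone of 5-HT3 and nicotinic receptors, averaged 884, 26.6 and 6.14 RPKM, and 0 of 3 were called. Among 22 tested G proteins and effectors 0 were called, beside 0.448% of all genes, with Gnaq at 225, Gnao1 at 85.3 and Gnai2 at 75.02 RPKM. Between the sexes, averaged over levels, 0 of the 35 were called, beside 0.0779% of all genes. With the replicate letter as a block 2 of 35 were, beside 2.4% of all genes: Maob at -0.96 (adjusted p = 0.0474) and Plcb3 at 0.70 (adjusted p = 0.0131), both in edgeR.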

How the data were processed

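RNA of sorted Ret-EGFP cells was amplified from low input and sequenced in 13 pooled libraries, per the labels' protocols. The authors deposited raw read counts per gene with CPM and RPKM computed from them, per the file headers. The submitters' processing notes name Subread and featureCounts 1.4.5 for all libraries, and STAR 2.0.4b and Salmon also for females. The build was GRCm38, and duplicates were not identified by molecular tags, so intervals and floors (3 counts) cover counting error only. Ensembl IDs were given symbols from GENCODE (40254 of 41388 matched).

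Counts were fitted in edgeR 4.0.16 (R 4.3.3; filterByExpr, TMM, robust quasi-likelihood F-test) on the 13 libraries together, with group means as coefficients, and called at a Benjamini-Hochberg adjusted p under 0.05. The CPM printed is the count over the TMM-scaled library total, and RPKM is as deposited. No pair of replicates agreed within sampling noise (chi-square per gene of at least 5.83). The procedure was tested on simulated data. The 10 receptor genes and all lists were chosen with earlier results of these data known. Other genes are named where called, as the 3 of highest RPKM in a list, or as the 5 nearest to Htr3a and Htr3b in log2 CPM (prior count 2, mean at least 1); the genes named under the replicate block, and those overlapping a receptor gene, were named after their values were seen. Replicate letters count as pairing the libraries by a rule on the data alone. Every same-letter pair correlated above 0.1 in its deviations from the group means, 0.101 to 0.520 between levels and 0.221 to 0.505 between the sexes. Pairs with different letters were not compared, so the rule cannot show that a letter marks pairing. The labels do not say what a letter shares. Alternatives were other size factors, DESeq2 1.42.0, no low-count filter, the replicate block and libraries left out.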

Additional observations from a re-analysis of the deposited data

How the results depend on the processing

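The Htr3a log2 fold change between levels, averaged over sexes, kept its sign under all 18 alternatives, between 1.37 and 1.65. Of 720 values of the 10 receptor genes in the contrasts of the sexes and their difference, 6 passed the threshold, all given above, and 31 took the other sign without being called. Genes called between levels, averaged over sexes, numbered 69; DESeq2 called 187 (164 higher, 23 lower), no low-count filter 144 (132 higher, 12 lower), and leaving out 1 library gave 28 to 129, the most without male L6S1 A. Between the sexes 12 genes were called, against 24 with DESeq2, 19 without the filter, 369 with the replicate block and 7 without male L6S1 D and E. In the difference of the level effect 0 were called, and 1 without the filter. Of the serotonin pathway genes, 1 of 35 was called between levels, 2 of 40 with DESeq2 and 2 of 40 without the filter (Kcnj9 added), and 0 to 1 with 1 library left out; between the sexes the replicate block called 2, against 0. Apart from Htr7, the block changed no call of a receptor gene between the sexes. The cause of these shifts was not tested. Leaving out male L6S1 A raised the genes called between the sexes at L6S1 to 3149, against 13, and between levels in males to 3135, against 34. Between levels in males, 4 of the 10 receptor genes were then called, Htr3a higher and Htr1d, Htr2a and Htr4 lower, beside 20.5% of all genes, given as a description. The 18 alternatives left the order of the genes by mean RPKM aside; scaled counts per kilobase gave the same order over all libraries. By Spearman rho in place of Pearson r, 3 of the 5 genes nearest to Htr3a in level and 1 of 5 by deviations were shared, and for Htr3b 0 of 5 by either measure.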
